A study of Homo sapiens with 5 samples.

Results

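The KD-only peaks are regions that the H3K9me3 peak list of KCNQ1OT1 knockdown cells holds and the other lists of the study lack. They were chosen by peak calls alone: a KD peak on chromosomes 1 to 22 entered when it shared not even 1 bp with a peak of the EV list or of the list without a genotype. By this rule 1303 of the 12081 KD peaks on these chromosomes (10.8%, exact Clopper-Pearson 95% interval 10.2 to 11.4) were KD-only. The 3 lists of the series hold 55034 peaks in all.

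H3K9me3, histone H3 trimethylated on lysine 9, was mapped by ChIP-seq, the sequencing of immunoprecipitated chromatin, in HEK293T, a transformed line derived from human embryonic kidney. The groups are cells with genotype KD, read here as the KCNQ1OT1 knockdown of the design (which adds a suffix K of unstated meaning), cells with genotype EV, taken to be the empty-vector control, and WT cells. Each group had 1 H3K9me3 library. EV and WT also had 1 input library each, and no KD input is listed. The control used in calling the KD peaks is not known, and the sources used here do not give the means of knockdown. A list whose name gives no genotype was not assigned to WT and served as a second set of called positions. The lists hold no read counts, so depth is unknown and no difference between KD and EV could be tested. The KD list is also the shortest, with 12081 peaks, against 23245 EV peaks and 13242 peaks without a genotype on chromosomes 1 to 22. Since the KD and EV lists end at a −log10 q of about 1, absence from a list means that no peak was called and does not show that the mark was absent. The cell line label could not be checked by marker genes, since no expression values were used here.

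H3K9me3 is written by methyltransferases such as SETDB1 and SUV39H1, bound by HP1 proteins, and is known for the packing of repeats, of zinc finger gene clusters and of genes of other lineages. KCNQ1OT1 is a long non-coding RNA that runs antisense to KCNQ1, a potassium channel gene, from a promoter inside that gene. On the paternal chromosome it is known to silence neighbouring imprinted genes.

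Some KD-only peaks lay over promoters rich in CG dinucleotides, the sites of DNA methylation. The stretches shown are the 250 bases before an annotated gene start, picked because a KD-only peak covers all or much of them, and they differ in CG content: MAEL, a piRNA pathway gene of the germline, CWH43, which remodels the lipid of membrane anchors, TBXT, the mesoderm factor brachyury, RUNX3, a factor of lymphocytes and sensory neurons, FAAH, which breaks down the endocannabinoid anandamide, and RBP4, the carrier of retinol in blood. Each runs 5′ to 3′ on the gene's own strand and is from RefSeq, build GRCh38.p14; capitals mark every CG.
MAEL: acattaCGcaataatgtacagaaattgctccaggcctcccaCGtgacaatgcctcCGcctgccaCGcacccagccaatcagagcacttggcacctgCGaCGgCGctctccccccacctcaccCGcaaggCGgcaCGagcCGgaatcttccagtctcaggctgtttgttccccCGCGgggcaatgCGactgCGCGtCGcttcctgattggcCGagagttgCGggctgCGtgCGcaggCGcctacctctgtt
CWH43: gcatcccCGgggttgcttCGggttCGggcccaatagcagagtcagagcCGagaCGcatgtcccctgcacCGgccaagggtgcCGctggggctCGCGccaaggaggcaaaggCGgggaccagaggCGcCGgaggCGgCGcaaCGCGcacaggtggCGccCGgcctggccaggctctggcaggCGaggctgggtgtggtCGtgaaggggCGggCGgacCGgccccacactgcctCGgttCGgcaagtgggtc
TBXT: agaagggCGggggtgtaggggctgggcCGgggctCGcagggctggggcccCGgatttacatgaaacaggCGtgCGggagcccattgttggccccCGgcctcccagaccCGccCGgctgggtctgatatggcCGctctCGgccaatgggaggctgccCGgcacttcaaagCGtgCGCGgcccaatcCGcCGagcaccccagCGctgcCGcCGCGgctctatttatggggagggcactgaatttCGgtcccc
RUNX3: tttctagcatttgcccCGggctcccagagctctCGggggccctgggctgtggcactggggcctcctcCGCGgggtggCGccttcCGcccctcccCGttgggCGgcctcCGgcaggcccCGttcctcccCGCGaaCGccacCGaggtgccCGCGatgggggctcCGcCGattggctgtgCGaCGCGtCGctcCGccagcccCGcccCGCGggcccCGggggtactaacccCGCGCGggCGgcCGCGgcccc
FAAH: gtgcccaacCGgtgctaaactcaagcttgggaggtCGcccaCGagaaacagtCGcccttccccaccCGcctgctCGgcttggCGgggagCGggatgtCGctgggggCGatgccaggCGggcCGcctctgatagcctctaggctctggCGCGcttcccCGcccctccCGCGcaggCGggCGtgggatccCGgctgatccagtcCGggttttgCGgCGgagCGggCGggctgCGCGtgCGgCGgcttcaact
RBP4: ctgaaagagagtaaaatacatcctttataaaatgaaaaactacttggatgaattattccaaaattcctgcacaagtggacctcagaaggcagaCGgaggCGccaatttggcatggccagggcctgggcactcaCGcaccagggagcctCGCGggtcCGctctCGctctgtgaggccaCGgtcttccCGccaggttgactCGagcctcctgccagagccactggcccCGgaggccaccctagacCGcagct
MAEL lies at chr1:166989030-166989279 on the plus strand, CWH43 at chr4:48986025-48986274 on plus, TBXT at chr6:166167852-166168101 on minus, RUNX3 at chr1:24930277-24930526 on minus, FAAH at chr1:46394067-46394316 on plus and RBP4 at chr10:93601514-93601763 on minus. The peak covered all 250 bases in MAEL, CWH43, TBXT and RUNX3, 212 bases in FAAH and 143 in RBP4. The RUNX3 stretch holds 33 CG, FAAH 29, CWH43 25, MAEL and TBXT 22 each, and RBP4 12.

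A KD-only peak at the KCNQ1OT1 promoter ranked 5th of all 1303 KD-only peaks by −log10 p, the caller's measure of enrichment over background. Peak strengths, here and throughout, are the authors' values and rank peaks within one list. The peak, chr11:2698828-2700605, spanned the 5′ end of KCNQ1OT1, with a −log10 p of 11.2 at a fold enrichment over background of 5.17. The nearest EV peak lay 59.3 kb away and the nearest peak without a genotype 60.0 kb away. Of the 1131 KD peaks on chromosomes 1 to 22 that were at least as strong, 5 were KD-only, and the KCNQ1OT1 peak was 1 of them.

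**Figure D1:**
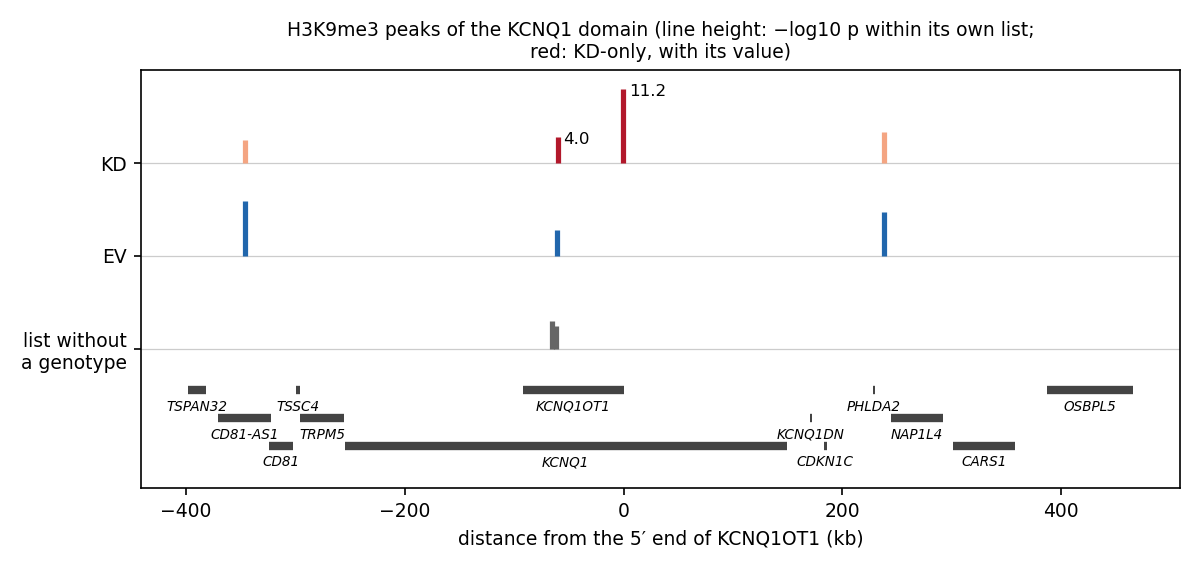
Called H3K9me3 peaks between TSPAN32 and OSBPL5 in the KD list (top), the EV list and the list without a genotype, by distance from the 5′ end of KCNQ1OT1 in kb, with positive distances toward higher chromosome positions; line height is the −log10 p within each list. The 2 red KD-only peaks, with −log10 p 11.2 and 3.99, both lie in KCNQ1.

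A second KD-only peak in the same transcript had another character. At chr11:2639581-2640150, inside both KCNQ1 and KCNQ1OT1, a peak of 570 bp with a −log10 p of 3.99 lay 11 bp from an EV peak and 0.732 kb from a peak without a genotype. It was among the 5 members closest to failing the rule, and the map of the domain shows it beside called peaks of both other lists. Between TSPAN32 and OSBPL5 the KD list held 4 peaks, of which these 2 were KD-only, against 3 EV peaks and 2 peaks without a genotype. No peak of any list touched the imprinted neighbours CDKN1C, which restrains the cell cycle, or PHLDA2, which limits growth of the placenta.

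The 10 strongest KD-only peaks lay in non-coding loci and in genes of varied roles. The first, chr2:113979539-113980060, lay in the overlapping non-coding genes LINC01191 and LINC02992, with a −log10 p of 16.1 and a fold enrichment of 5.10. The second, chr5:1539772-1540147, touched no gene and lay 15.8 kb from LPCAT1, a lipid remodelling enzyme, with a −log10 p of 16.1 at a fold enrichment of 2.34. TENM3, a teneurin that guides the wiring of visual circuits, held the KD-only peak of the highest fold enrichment, 7.36, at chr4:182799479-182800471.

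GRK1, the kinase that shuts off rhodopsin, carried a peak with a −log10 p of 11.3 and a fold enrichment of 6.15, the nearest EV peak 7.31 kb away. CDKN2A, which encodes cell cycle inhibitors and tumour suppressors, carried one at chr9:21970814-21971303 with a −log10 p of 11.03 and a fold enrichment of 6.34. Its nearest EV peak was 70.8 kb away and its nearest peak without a genotype 273 kb. ELAVL2, a neuronal RNA-binding protein, followed with 10.3, GPR25, an orphan receptor, with 10.1, and PDE1A, a calmodulin-dependent phosphodiesterase, with 9.68. Of the strongest 10, 7 lay in a protein-coding gene, and the smallest gap to a peak of the other lists was that of GRK1.

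A larger share of the KD-only peaks than of the peaks restricted to either other list lay at gene starts. A start is counted here when a peak touches a RefSeq promoter window, from 250 bases before to 50 after an annotated start of a protein-coding gene. An annotated start can lie inside the gene body, as do those touched in ELAVL2, MAEL, RUNX3 and PAX6. Such windows were at hand for 15100 genes. KD-only peaks touched the windows of 55 genes, 0.364% of those 15100, and 54 of the 1303 peaks (4.14%, interval 3.13 to 5.37) touched a window. Of the 12826 EV-only peaks 110 (0.858%, interval 0.705 to 1.03) did so, and of the 6061 peaks found only without a genotype 14 (0.231%, interval 0.126 to 0.387). KD peaks shared with EV alone stood at 1.95% and those shared with both lists at 0.443%. These intervals cover counting error over peaks of single libraries, and peak widths differ between the sets.

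The CG content of the printed promoters was common to the touched windows. The 59 windows of the 55 genes held a median of 28 CG in 300 bases and 58 of them (98.3%, interval 90.9 to 99.96) held at least 10, against 70.1% of all 21155 protein-coding windows, with a median of 21. Windows touched by EV-only peaks held a median of 21.5, and 83.1% of those 136 had at least 10. Windows under KD peaks shared with EV alone were close to the KD-only ones, with a median of 27 and 94.5%.

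GGGCGG, read on both strands and itself containing a CG, was in 79.7% of the KD-only windows, against 56.6% of all protein-coding windows and 61.0% of those under EV-only peaks. TATAAA, also read on both strands, was in 6.78%, against 9.51% of all windows. These letter matches describe the windows and name no bound factor. Windows of 1 gene overlap in part, so the 59 are not independent.

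**Figure D2:**
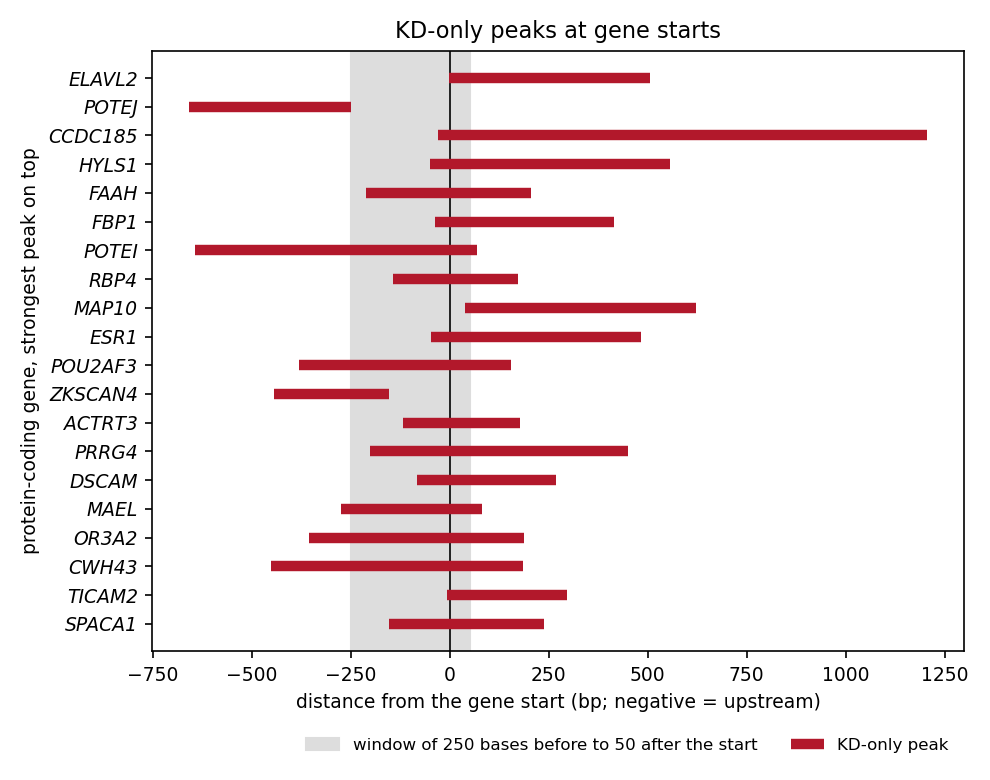
Position of the KD-only peak relative to the start of the 20 protein-coding genes with the strongest such peaks, in bp, with the window of 250 bases before to 50 after the start in grey. ELAVL2 is on top. The peaks of ELAVL2 and CCDC185 run downstream of the start, while those of POTEJ and ZKSCAN4 stop upstream of it.

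ELAVL2 had the strongest peak at a start, 507 bp wide, with a fold enrichment of 5.90. It reached from 1 base before that start, which lies inside the gene body, to 505 bases past it. The EV list had its nearest peak 93.3 kb away and the list without a genotype 359 kb away. The plot of start positions shows a like placement, over the start and downstream of it, for CCDC185, a coiled-coil protein (−log10 p 7.38). HYLS1, a centriole protein needed for cilia (6.43), shows it too.

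Further start genes had varied roles. FAAH carried a peak of 419 bp with a −log10 p of 6.41 at a fold enrichment of 4.78, 18.2 kb from the nearest EV peak. FBP1, a gluconeogenic enzyme, carried one with a fold enrichment of 4.96, with EV 6.06 kb away, and RBP4 one of 315 bp with 4.94, with EV 34.0 kb away. TICAM2, an adaptor of innate immune receptors, had a −log10 p of 5.29, 213 kb from any peak of the other lists, and CXCL1, a neutrophil attractant, had 4.30 at 71.0 kb.

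ESR1, the estrogen receptor alpha gene, had a peak at one of its annotated starts, chr6:151807635-151808164, with a −log10 p of 6.18 at a fold enrichment of 4.37. The nearest EV peak was 220.1 kb away and the nearest peak without a genotype 165 kb. ESRRG, an orphan nuclear receptor gene related to it, had a start peak of 3.63 in −log10 p, 169.97 kb from EV but 0.772 kb from a peak without a genotype. DSCAM, a neuronal adhesion molecule, had 5.83, with a gap of 6.94 kb to the nearest peak of either list.

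Of 26 germline genes KD-only peaks touched 2 (7.69%, interval 0.946 to 25.1), against 2.76% of all protein-coding genes. These were MAEL and DDX4, an RNA helicase of germ cells. The density was 1.22 KD-only peaks per Mb of gene body, against 0.450 over all protein-coding genes. Of the 23 genes with a window, 1 was touched in it, which was MAEL, against 0.364% of all protein-coding genes with a window. The DDX4 peak, chr5:55736623-55738158, touched no window and is not in that count. It crossed the end of the DDX4 body at position 55738061, with 0.124% of the body under it. EV-only peaks touched 12 of the 26 (46.2%), against 18.8% of all protein-coding genes. MAEL had a −log10 p of 5.81 at a fold enrichment of 4.62, 67.7 kb from EV, and its peak covered its whole window. SPACA1, a protein of the sperm acrosome that is not on the list, had a −log10 p of 5.22 at a fold enrichment of 4.36, with EV 174 kb away. HENMT1, which methylates piRNAs, TDRD5, a piRNA pathway protein, and SOX30, a factor of spermatid development, had −log10 p of 4.88, 3.87 and 3.97; they too are not on the list and were picked out after their values were seen. The SOX30 peak also touches the start of the neighbouring gene C5orf52 and is 1 peak for both.

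Some start genes have near-identical copies, and how reads of such copies were placed is not given. POTEJ (−log10 p 7.54) and POTEI (6.37) belong to a family of recent duplicates, and the POTEJ peak meets its window by 1 base. FAM246A and FAM246B are likewise a pair of copies, with fold enrichments of 3.25 and 3.30. The counts at starts therefore hold a few genes whose assignment is uncertain.

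KD-only peaks touched the bodies of 527 of 19122 protein-coding genes on chromosomes 1 to 22, which is 2.76%. Of these genes, 297 had no EV peak in the body and 270 had neither an EV peak nor a peak without a genotype. In 404 all KD peaks of the body were KD-only. In 493 genes there was 1 KD-only peak, and in 34 there were 2 or more. The touched genes were long, with a median body of 78.7 kb, against 24.5 kb over all protein-coding genes, so a share of a list of long genes is set beside its peaks per Mb. Over all protein-coding genes that density was 0.450 KD-only peaks per Mb of body.

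Developmental transcription factor genes stood above that background, both in share and in density. Of 199 genes on the list 27 (13.6%, interval 9.14 to 19.1) were touched, with 3.85 peaks per Mb. In 22 of the 27 the body held neither an EV peak nor a peak without a genotype, against 270 of all 527 touched genes (51.2%). The 27 have a median body of 7.06 kb, against 78.7 kb for all touched genes, and this count was not adjusted for length. EV-only peaks, though 12826 in number, touched 24 of the 199 (12.1%), at 4.0 per Mb, against 4.30 per Mb for EV-only peaks over all protein-coding genes. Of the protein-coding genes each set touched, the list made up 5.12% for KD-only peaks (27 of 527, interval 3.40 to 7.37), 0.669% for EV-only peaks (24 of 3590, interval 0.429 to 0.993) and 0.639% for peaks found only without a genotype (7 of 1095). KD peaks shared with EV alone stood at 2.83% (44 of 1557). The list was drawn up with earlier results of these libraries known, so its share is a description and not independent evidence.

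**Figure D3:**
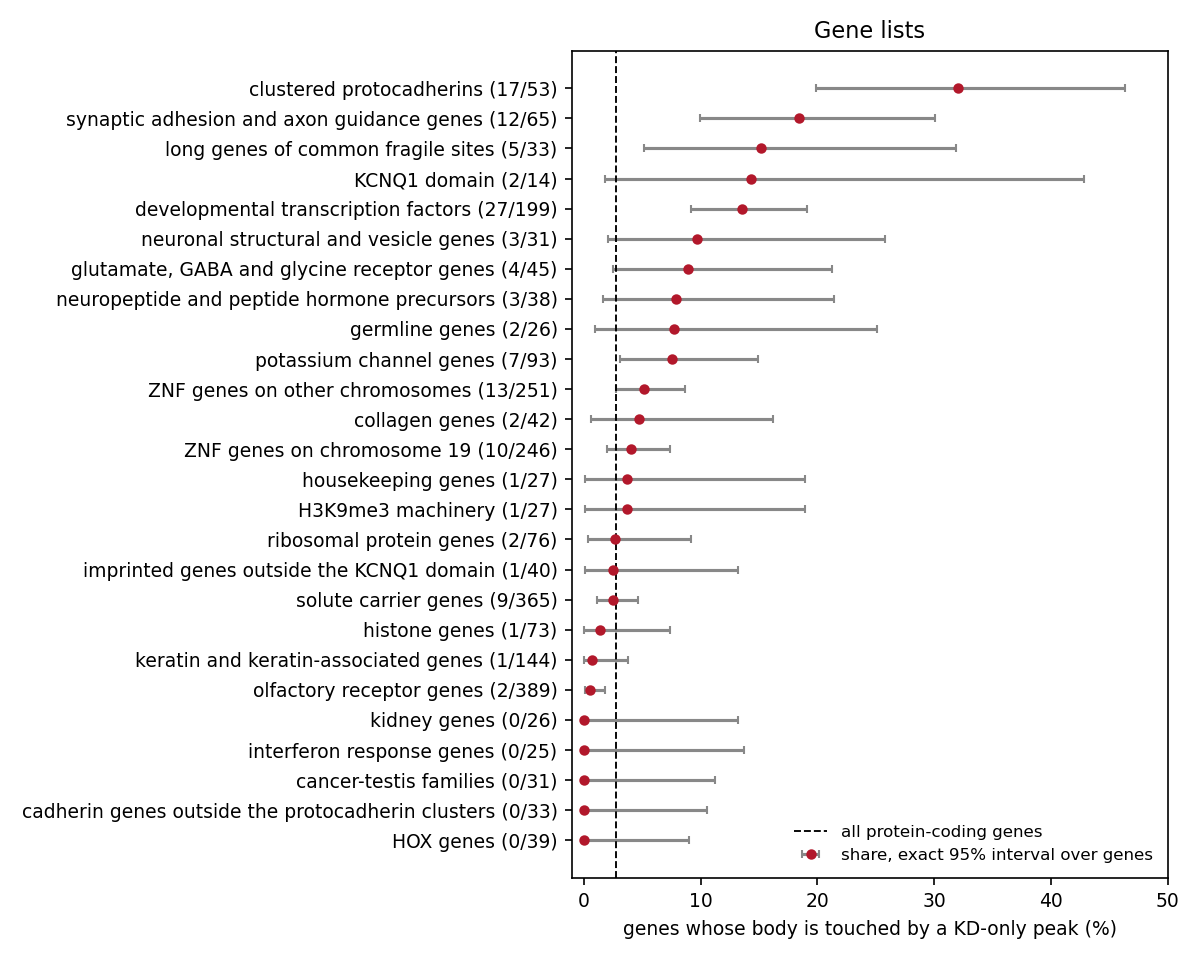
Share of each gene list whose bodies are touched by a KD-only peak, in percent, with exact 95% intervals over genes; touched and listed genes are in brackets and the dashed line is all protein-coding genes, 2.76%. Developmental transcription factors stand at 13.6%, and 5 lists stand at 0; gene length differs between lists and is not adjusted for.

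These factors are short genes, with a median body of 7.06 kb, and their KD-only peaks were of ordinary strength. The −log10 p ran from 3.83 to 8.26 with a median of 4.45, and the median fold enrichment was 3.5, against medians of 4.28 and 3.60 over all KD-only peaks. The median gap to the nearest EV peak was 22.4 kb. Where only peaks with a fold enrichment of at least 4 were kept in the KD list, 4 of the 199 (2.01%) were touched, against 0.711% of all protein-coding genes. With gaps of at least 10 kb to the other lists, 15 (7.54%) were touched, against 2.07%.

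FOXA1, a pioneer factor of endoderm, had the strongest of these peaks, chr14:37592195-37592740, with a −log10 p of 8.26 and a fold enrichment of 3.61, 139.5 kb from EV and 239.5 kb from the list without a genotype. OLIG3, a factor of the dorsal spinal cord, had 7.96, with EV 4.40 kb away, RUNX1, a factor of blood stem cells, 7.86 at 90.6 kb, and HAND2, a heart and limb factor, 6.68 at 1.55 kb. TBR1, a factor of deep cortical neurons, had 6.20, with EV 3.22 kb away. The gaps to EV thus varied widely among them.

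In a few of these genes the peak took up much of the body. It covered 72.5% of the 3.73 kb of BARX1, a factor of stomach and teeth, in a peak of 2703 bp at chr9:93952317-93955019, the third widest KD-only peak. In SOX14, a neural factor, it covered 52.4% of 2.02 kb, and in MYOD1, the muscle determination factor, 21.2%. TBXT had a peak of 2330 bp across its start, with a fold enrichment of 3.82 and EV 12.9 kb away. DMRTA2, TBXT, RUNX3 and PAX6 were the 4 factors of the list touched in a start window, of 143 with a window (2.80%). The SOX14 peak, chr3:137764180-137765372, crossed the end of its gene body at position 137764315. It touched no window and is not in that count. Over all protein-coding genes with a window that share was 0.364%. The PAX6 peak met its window by 13 bases. None of the 39 HOX genes, whose bodies span 0.269 Mb, was touched, and EV-only peaks touched 1 of them.

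Genes of synaptic adhesion and axon guidance were touched in 12 of 65 (18.5%), at 0.391 peaks per Mb, below the 0.450 of all protein-coding genes, and none of 55 at the start. TENM3 led them, followed by SEMA5A, a semaphorin (−log10 p 7.99), EPHA8 (6.21) and EPHB1 (5.93), both ephrin receptors. SLITRK5, a synaptic adhesion protein in a gene of 8.25 kb, had its peak over 19.3% of the body, while in the other genes of the list the peak covered at most 2.98%. Clustered protocadherins, which label single neurons, were touched in 17 of 53 (32.1%), against 2.76% of all protein-coding genes, but their overlapping annotations were met by 3 peaks. The density was 6.33 per Mb, against 0.450. EV-only peaks touched 38 of the 53 (71.7%), against 18.8% of all protein-coding genes, and peaks found only without a genotype 25 (47.2%), against 5.73%.

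Of 45 glutamate, GABA and glycine receptor genes 4 were touched (8.89%), at 0.338 peaks per Mb, below the 0.450 of all protein-coding genes. GRM7, a glutamate receptor, had a −log10 p of 7.47 and a fold enrichment of 5.38 at chr3:7263349-7264071, 717 kb from any peak of the other lists, the fourth longest gap of all. GRM5 had 6.76, 438 kb from EV and 805 kb from the list without a genotype, and GRM3 had 6.06, 328 kb from EV and 257 kb from the list without a genotype. GRM6 had 4.42 and EV 1.01 kb away. Of 93 potassium channel genes 7 (7.53%) were touched by 11 peaks, at 0.936 per Mb, with KCNQ1 the strongest and KCNA3 touched at the start (−log10 p 3.92, EV 273 kb away).

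The touched genes of neuropeptide precursors and of neuronal structure were few, and these showed no called peak of the other lists in the body. The same was so for 51.2% of all touched protein-coding genes. NPY, a neuropeptide of appetite, had a peak over 14.6% of its body with a fold enrichment of 4.53 and EV 145 kb away. PENK, the enkephalin precursor, had 17.5% of its body covered at a fold enrichment of 4.46, and TRH, the precursor of thyrotropin-releasing hormone, had a start peak with a fold enrichment of 3.52. These are 3 of 38 precursor genes (7.89%, interval 1.66 to 21.4), at 9.65 peaks per Mb over 0.311 Mb of short bodies. ELAVL2, PRPH and NEFM made 3 of 31 structural genes (9.68%, interval 2.04 to 25.8), PRPH and NEFM being intermediate filaments of neurons. The structural list stood at 0.443 peaks per Mb, close to the 0.450 of all protein-coding genes. EV-only peaks touched 4 of the 38 precursor genes (10.5%) and 6 of the 31 structural genes (19.4%), against 18.8% of all protein-coding genes. Peaks found only without a genotype touched 1 precursor gene (2.63%) and 2 structural genes (6.45%), against 5.73% of all protein-coding genes.

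Zinc finger genes, the classical gene targets of H3K9me3, were touched at more than the background density. On chromosome 19, KD-only peaks touched 10 of 246 (4.07%) at 1.70 per Mb, and none of 216 at the start. Of the 10, 2 had no peak of the other lists in the body, against 51.2% of all touched protein-coding genes. EV-only peaks touched 52.4% of the same genes, against 18.8% of all protein-coding genes, and peaks found only without a genotype 43.5%, against 5.73%. ZNF274, a zinc finger protein that brings the H3K9me3 writer to its targets, held 2 KD-only peaks, 2.27 and 2.49 kb from EV peaks, and was the 1 touched gene of 27 of the H3K9me3 machinery.

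The remaining lists varied around the background share of 2.76%. Solute carriers were touched in 9 of 365 (2.47%), ribosomal protein genes in 2 of 76, imprinted genes outside the KCNQ1 domain in 1 of 40, which was GNAS with 2 peaks, and collagen genes in 2 of 42. Of 27 housekeeping genes 1 was touched. Among 73 histone genes H3C4 was touched, among 144 keratin genes KRT19, and among 389 olfactory receptors 2 (0.514%, interval 0.0623 to 1.84) by 1 shared peak. Zinc finger genes on other chromosomes were touched in 13 of 251 (5.18%, interval 2.79 to 8.69). Long genes of common fragile sites were touched in 5 of 33 (15.2%, interval 5.11 to 31.9), at 0.178 peaks per Mb, below the density over all protein-coding genes. Cancer-testis, kidney, interferon response and other cadherin genes, 31, 26, 25 and 33 in number, were not touched.

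Genes with several KD-only peaks lay mostly near chromosome ends. PTPRN2, a phosphatase-like protein of secretory granules at the end of chromosome 7, held 8, each 480 to 655 bp wide, among 78 KD peaks, 127 EV peaks and 44 peaks without a genotype. SNTG2, a syntrophin, held 5 of 14 KD peaks, beside 14 EV peaks, and PXDN, a peroxidase of the matrix, held 4 of 11, beside 10. MYT1L, a neuronal zinc finger factor, lies next to both on chromosome 2 and held 3 of 11, beside 9 EV peaks. In these 4 genes the KD-only peaks stood in a landscape of peaks called in every list.

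MAD1L1, a spindle checkpoint gene, differed from them in this respect. It held 4 KD-only peaks among 5 KD peaks, against 1 EV peak and 1 peak without a genotype, and the gaps to the other lists ran from 16.8 to 189 kb. The strongest, chr7:1990848-1992163, had a −log10 p of 6.45. PDE10A, a phosphodiesterase of the striatum, held 3 among 5 KD peaks, against 2 EV peaks and none without a genotype, with −log10 p up to 4.41. FAM20C, a secreted kinase, and KCNG2, a channel subunit, each held 3.

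Across the genome, KD-only peaks followed the gene bodies in about the proportion these occupy. They touched a protein-coding body in 545 of 1303 cases (41.8%, interval 39.1 to 44.6), where such bodies span 42.1% of the length. EV-only peaks stood at 40.5%, KD peaks shared with EV alone at 34.4% and KD peaks shared with both lists at 5.72%. Gene-free stretches of at least 2 Mb held 6.52% of KD-only peaks, against 82.6% of the KD peaks shared with both lists and 8.82% of EV-only peaks; these stretches span 5.87% of the length. Non-coding RNA genes were touched by 201 KD-only peaks (15.4%), tRNA genes by 4, and no miRNA hairpin by any.

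Chromosome ends held a larger share than their length. Within 5 Mb of an end lay 14.5% of KD-only peaks (interval 12.6 to 16.5), where these segments span 7.65% of the length, against 11.98% of EV-only peaks and 4.91% of KD peaks shared with both lists. The first 5 Mb of chromosome 2, with SNTG2, PXDN and MYT1L, held 20, and the last 5 Mb of chromosome 7, with PTPRN2, held 15. By chromosome, KD-only peaks per Mb had a median of 0.446, with a lowest value of 0.262 and a highest of 0.717, on chromosome 19. The share of a chromosome's KD peaks that were KD-only ran from 3.36% on chromosome 18 to 24.4% on chromosome 6.

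KD-only peaks that touched no gene numbered 555 (42.6%), with a median distance of 105 kb to the nearest protein-coding gene. The widest of all KD-only peaks, chr2:91562206-91567917, spanned 5712 bp over the pseudogene LOC107985797, with a fold enrichment of 3.54. The next, of 3396 bp, lay at chr1:161463653-161467048 over the tRNA genes TRL-CAG1-4 and TRG-GCC1-4, with a fold enrichment of 1.94. Pseudogenes and tRNA genes have near copies elsewhere, so the placement of reads there is uncertain.

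The distance to the nearest peak of either other list had a median of 29.8 kb (order-statistic 95% interval 26.1 to 34.4), with quartiles at 5.98 and 84.5 kb. It was under 1 kb for 105 peaks, from 1 to under 10 kb for 313, from 10 to under 100 kb for 618 (47.4%), and 100 kb or more for 267 (20.5%). The EV list alone was 37.4 kb away at the median and the list without a genotype 157 kb, and the nearer peak was an EV peak for 996. For comparison, EV-only peaks lay a median of 60.5 kb from the nearest peak of the lists that lack them, and peaks found only without a genotype 16.1 kb. These distances depend on how many peaks the other lists hold.

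**Figure D4:**
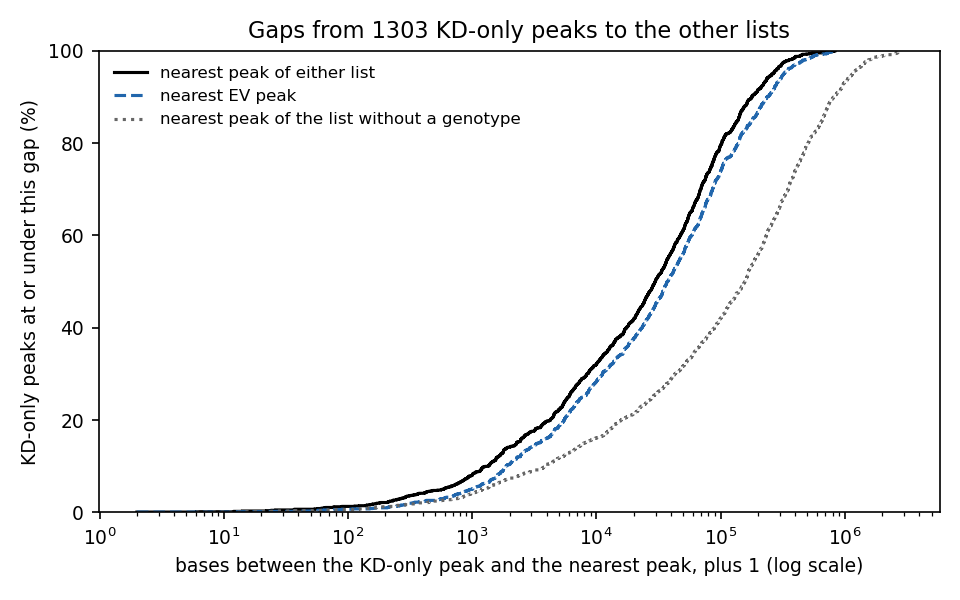
Cumulative share of the 1303 KD-only peaks, in percent, by the number of bases to the nearest peak of either other list, of the EV list and of the list without a genotype, on a log axis with 1 added. The EV curve, with a median of 37.4 kb, runs close to that of either list, with 29.8 kb; the list without a genotype lies farther, with 157 kb.

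Peaks next to a called peak and peaks far from one differed in gene context. A protein-coding body was touched by 17 of the 88 peaks with a gap from 100 bp to under 1 kb (19.3%), by 44.01% of those at 10 to under 100 kb and by 49.1% of those at 100 kb or more. A start window was touched by none of the 17 peaks nearer than 100 bp, by 1.14% from there to under 1 kb, by 5.34% at 10 to under 100 kb and by 4.49% beyond. Median widths across these gap classes stayed between 453 and 566 bp. The farthest, chr4:32716203-32716521, was 840 kb from any peak of the other lists and touched no gene, and ZNF804B, a zinc finger gene of neurons, held the fifth farthest, at 668 kb.

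Distances within the KD list depend on how many peaks it holds, and KD-only peaks numbered 0.453 per Mb. No expected spacing was computed. The nearest KD peak found in another list lay a median of 142 kb away and the nearest other KD-only peak 515 kb, and 42 had another KD-only peak within 10 kb. The longest run of KD-only peaks under 10 kb apart held 7, over the tRNA genes TRL-CAG1-1, TRL-CAG1-2, TRL-CAG1-4, TRL-CAG1-5 and TRG-GCC1-4 at chr1:161441182-161472172. Their −log10 p ran from 4.25 to 7.80 and their fold enrichment from 1.81 to 2.26. The next run held 3 peaks, at FCHO2-DT on chromosome 5, and the other runs held 2 each.

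The KD-only peaks were narrow and weak within their own list. Width ran from 291 to 5712 bp with a median of 492 bp (quartiles 375 and 682), against 1794 bp for KD peaks shared with both lists. The −log10 p ran from 3.32 to 16.1 with a median of 4.28, against 5.45, and the fold enrichment from 1.81 to 7.36 with a median of 3.60, against 3.73. These values come from the calls that chose the peaks and are given as a description.

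Among all KD peaks, the share that was KD-only fell with width and, above a −log10 p of 4, with strength. It was 10.5% at a −log10 p from 3 to 3.5, 18.6% from 3.5 to 4, 5.88% from 6 to 8 and 0.297% at 12 or more, where 3 of 1010 peaks were KD-only. By width it was 35.0% under 400 bp, 17.6% from 500 to 750 bp and 0.371% at 2000 bp or more, where 10 of 2695 were KD-only. BARX1 and TBXT are 2 of those 10.

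**Figure D5:**
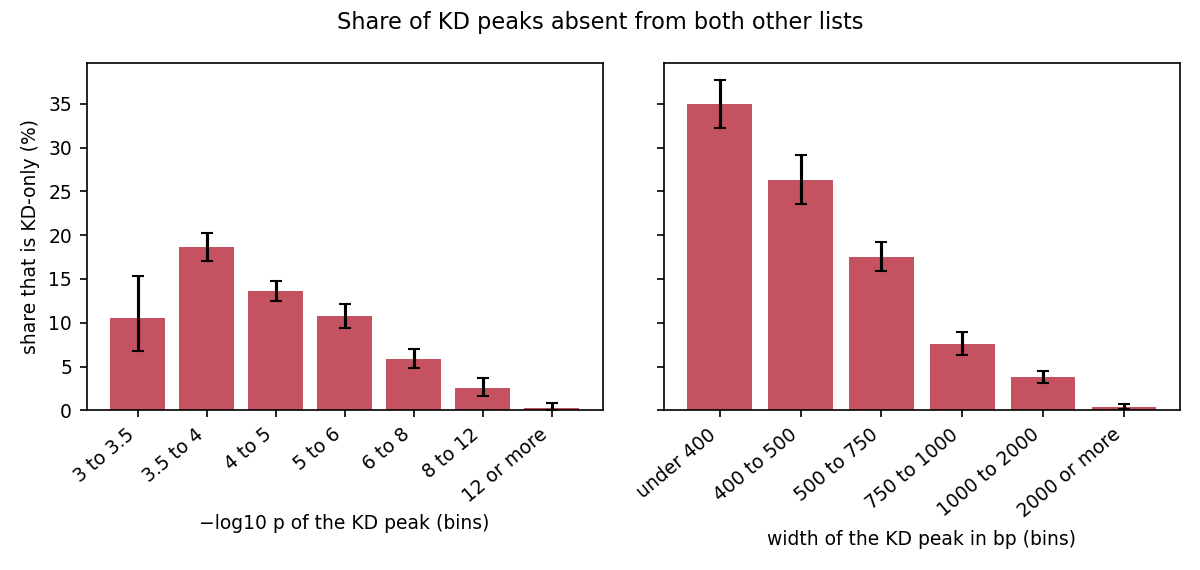
Share of KD peaks on chromosomes 1 to 22 that are KD-only, in percent, by −log10 p (left) and by width in bp (right); bars are shares and lines are exact 95% intervals over peaks. The share falls to 0.297% for the strongest and 0.371% for the widest peaks.

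At the edge of the rule the peaks just inside and just outside were alike in size. The 5 KD-only peaks nearest to another list had gaps of 1, 5, 11, 13 and 21 bp and widths of 333 to 570 bp, the one in KCNQ1 among them. The 5 KD peaks that failed by the least overlapped another list by 6, 9, 10, 12 and 16 bp and were 366 to 916 bp wide. Of the 10778 KD peaks outside the set, 310 (2.88%) had less than 50% of their length under peaks of the other lists.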

How the data were processed

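The labels list 5 ChIP-seq samples of HEK293T cells (H3K9me3 libraries of KD, EV and WT, inputs of EV and WT), 1 per group. Reads were aligned with Bowtie2 and broad peaks called with MACS2 on GRCh38, per the submitters' processing notes; the sources used here give no versions, options, control libraries or pooling. Each deposited peak carries a score, a fold enrichment (a ratio over the caller's background) and a −log10 p, all computed by the authors. The deposited KD and EV peaks also carry a −log10 q, likewise computed by the authors. For the list without a genotype no −log10 q was used. The score was not used, and the other values describe peaks within their own list. The lists give no read counts, so depth is unknown and intervals cover counting error over peaks or genes.

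Peaks were converted to positions counting from 1. Overlap required 1 bp, and a gap is the number of bases between 2 peaks. Overlaps, gaps and covered bases, computed with numpy 2.4.6, matched bedtools 2.31.1 on simulated intervals. Genes and promoter windows came from RefSeq tables of GRCh38.p14, without strand or exons for gene bodies, and with no window on chromosome 8. Exon, intron and repeat context was not analysed here. Chromosome length was taken to the last gene or peak end. Intervals are exact Clopper-Pearson (scipy 1.17.1). With 1 library per group and members chosen by the calls, no test was made.

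Named genes were: all KD-only peaks of the KCNQ1 domain, the 20 start genes with the strongest peaks, the 10 genes with most KD-only peaks, the 10 strongest, widest and farthest peaks, and up to 4 touched members of each of 26 gene lists; others were named after their values were seen, and a few that the rule picks are not reported here. The members and lists were chosen with earlier results of these data known. Of 567 symbols listed, 551 matched a gene on chromosomes 1 to 22. Alternatives were stricter gaps, an overlap limit, cuts on −log10 q and fold, merging within 3 kb, 1 comparison list, and other lists limited to their strongest peaks.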

Additional observations from a re-analysis of the deposited data

How the results depend on the processing

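Against 1303 KD-only peaks, a −log10 q of at least 2 left 549, a fold enrichment of at least 4 left 334, absence from the list without a genotype alone gave 6483, and comparison with the strongest peaks of the other lists gave 2333. Under these 4 settings, in that order, the genes touched at the start, 55 in the main count, numbered 34, 24, 161 and 93, and the median gap, 29.8 kb in the main count, was 37.8, 40.2, 99.9 and 42.5 kb. The median gap was 36.3 kb for gaps of at least 1 kb, 60.2 kb for at least 10 kb, 15.5 kb where up to 50% of a peak could lie under the other lists, and 35.3 kb after merging within 3 kb. The share in protein-coding genes, 41.8%, was 45.5% for gaps of at least 10 kb, 39.1% against EV alone, 35.9% against the list without a genotype alone and 38.4% against the strongest peaks. The cause of these shifts was not tested, apart from settings that remove short gaps by construction. Chromosome ends, CG content, gap classes and gene lists other than developmental transcription factors were not rerun. The share in protein-coding genes lay below the 42.1% of length in such genes in the main count. It lay above that value for gaps of at least 1 kb (43.7%) and of at least 10 kb (45.5%). The same held for a −log10 q of at least 2 (42.4%) and for merging within 3 kb (42.9%). In the other settings the share lay below it. No paired analysis was possible because each group had 1 library. Depth is unknown, and a KD-only peak may lie under the calling threshold of the other lists.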

Other observations

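The same rule was applied to sequences outside the report. On chromosome X, 63 of 504 KD peaks (12.5%, exact interval 9.74 to 15.7) overlapped no peak of the other lists, with a median width of 440 bp. On unplaced and other sequences 60 of 805 did so (7.45%, interval 5.74 to 9.49), below the 10.8% of chromosomes 1 to 22, with a median width of 499 bp. On chromosome Y 4 of 65 did so (6.15%, interval 1.70 to 15.0). The strongest of each group had a −log10 p of 9.06 on chromosome X and 8.46 on the unplaced sequences.

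Among non-coding genes, LINC01191 and LINC02992 shared the strongest KD-only peak. KCNQ1OT1 followed with 2 peaks and a −log10 p of 11.2. In all, KD-only peaks touched 217 of 17795 non-coding RNA genes and 60 of 14324 pseudogenes.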
